A study of Mus musculus with 8 samples.

Results

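The Frizzled receptors are the family of cell-surface proteins through which cells receive Wnt signals. The 10 mouse members, Fzd1 to Fzd10, were taken by gene symbol from a table of 14954 genes, and all 10 had a row. Expression was measured by RNA-seq in 8 cultures of neural progenitors of cortical type, grown out of mouse embryonic stem cells of the A2 lox.Cre Bcl6 line, whose Bcl6 transgene responds to tetracyclines. In the 4 Bcl6-induced cultures the transgene was switched on with 1 µg/ml doxycycline for 24 h at day 12 of differentiation, and the 4 control cultures received DMSO at that time. Both groups carried the transgene and had received cyclopamine, which blocks the hedgehog pathway, at 400 ng/ml from day 2 to day 10. The stem cells of both groups had been kept on irradiated mouse embryonic fibroblasts before differentiation. No culture had doxycycline without the transgene, so effects of Bcl6 and of doxycycline cannot be told apart. The labels number the differentiations 1 to 4 in each group and do not say how far they were independent, so p-values reflect the variation among these 8 libraries, which may be technical.

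A Frizzled receptor spans the membrane several times and binds Wnt ligands through a cysteine-rich domain outside the cell. With the co-receptors Lrp5 or Lrp6 it recruits Dishevelled and stabilises beta-catenin, and with other partners it sets planar cell polarity and guides axons. In the embryonic forebrain Wnt ligands from the dorsal midline act on progenitors through these receptors, and beta-catenin signalling favours their renewal. Bcl6 is a transcriptional repressor that promotes neurogenesis in the mouse cortex. The comparison asks which of the receptors differ in level when Bcl6 is raised.

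What the receptors share in sequence is shown first, beside the groups in which their levels are described below. Each of the 10 coding sequences held, once, the short stretch just after the last membrane helix to which Dishevelled binds: lysine and threonine, any 3 residues, then tryptophan. The stretch occurred in 2.59% of the coding sequences of the genes in the table. Its 18 coding bases are given for 9 members (GRCm38, GENCODE transcripts, 5′ to 3′ on the coding strand), with the codons of the fixed residues in capitals.
Fzd1: AAGACActgaattccTGG
Fzd2: AAGACActgcactcgTGG
Fzd7: AAGACCctgcagtcaTGG
Fzd5: AAGACTctggagtctTGG
Fzd4: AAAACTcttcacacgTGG
Fzd9: AAGACTtttcagactTGG
Fzd10: AAGACCctgcagtccTGG
Fzd3: AAGACAtgctttgaaTGG
Fzd6: AAGACGtgcacagaaTGG
The tails beyond this stretch differed in length. They ran for 17 residues after the tryptophan in Fzd1, Fzd2 and Fzd7 and for 159 and 206 residues in Fzd3 and Fzd6. The members were set by hand in 4 groups. Identity of the translated coding sequences was 79.4% to 81.6% among Fzd1, Fzd2 and Fzd7 and 71.0% between Fzd5 and Fzd8. Fzd9 and Fzd10 shared 67.0%, Fzd4 shared 53.9% and 54.9% with those, and Fzd3 and Fzd6 shared 53.0%. Between groups identity reached 54.9%, for Fzd2 and Fzd5, which is as high as some values within groups. The longest identical run between transcripts of different members was 47 bases, between Fzd1 and Fzd2 and between Fzd1 and Fzd7. How reads that fall wholly within such runs were counted is not given in the sources used here. The levels of these 3 are uncertain to that extent.

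Expression is given as CPM (each gene's part of the library total, scaled up), from 10.33 M to 15.02 M reads per induced library and 9.42 M to 9.74 M per control. The members had 49 to 2292 reads in induced libraries and 58 to 1145 in controls. Bcl6 itself, counted from the transgene and the endogenous gene together, was between 325 and 427 CPM in induced libraries and between 6.01 and 7.12 CPM in controls. Control 1 stood apart by transcript length: the 1493 genes with the longest transcripts lay there at -0.42 by their median log2 distance to the mean of the controls, and at 0.01 to 0.22 in the other controls. The 10 radial glia markers had a summed level of 1210 to 1570 CPM in induced libraries and 1680 to 2090 CPM in controls, and 6 of them were called lower. The 8 neuronal markers summed to 1340 to 1590 CPM in induced libraries and 809 to 981 CPM in controls, and 6 were called higher. Both groups also held transcripts of undifferentiated stem cells, whose 8 markers summed to 1840 to 2150 CPM in induced libraries and 1970 to 2170 CPM in controls. Of these 8, 4 were called higher and 1 lower, and their mean log2 level relative to the controls was 0.30, 0.35, 0.13 and 0.19 in induced libraries 1 to 4, against -0.10 to 0.10 in controls. The 8 markers of feeder fibroblasts summed to 565 to 684 CPM in induced libraries and 522 to 671 CPM in controls. The 6 endoderm markers summed to 75.2 to 98.7 CPM in induced libraries and 62.0 to 87.8 CPM in controls. In such bulk samples a change in the share of a cell type and a change in the RNA per cell cannot be told apart.

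Of the 10 receptors, 1 passed the test: Fzd8 rose after Bcl6 induction. The other 9 did not pass, among them Fzd7, the most abundant, and Fzd9, which had the largest difference towards lower levels. Over all genes 6.81% were called by limma at an adjusted p under 0.05, so a count of 1 in 10 is close to that background. Without control 1 the count of receptors called was 2, with Fzd7 added. Calls over all 14954 genes rose as well, from 1019 to 1697, so the background was higher there. The median log2 fold change of the receptors was 0.02, and that of all genes was 0.03. In 3 members, Fzd6, Fzd7 and Fzd8, every induced library lay above every control, and groups did not overlap in 17.1% of all genes. Summed over the family, the level was 419.1 ± 8.72 CPM in induced libraries and 392.4 ± 21 CPM in controls (SD, n = 4 each), with overlapping ranges.

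**Figure D1:**
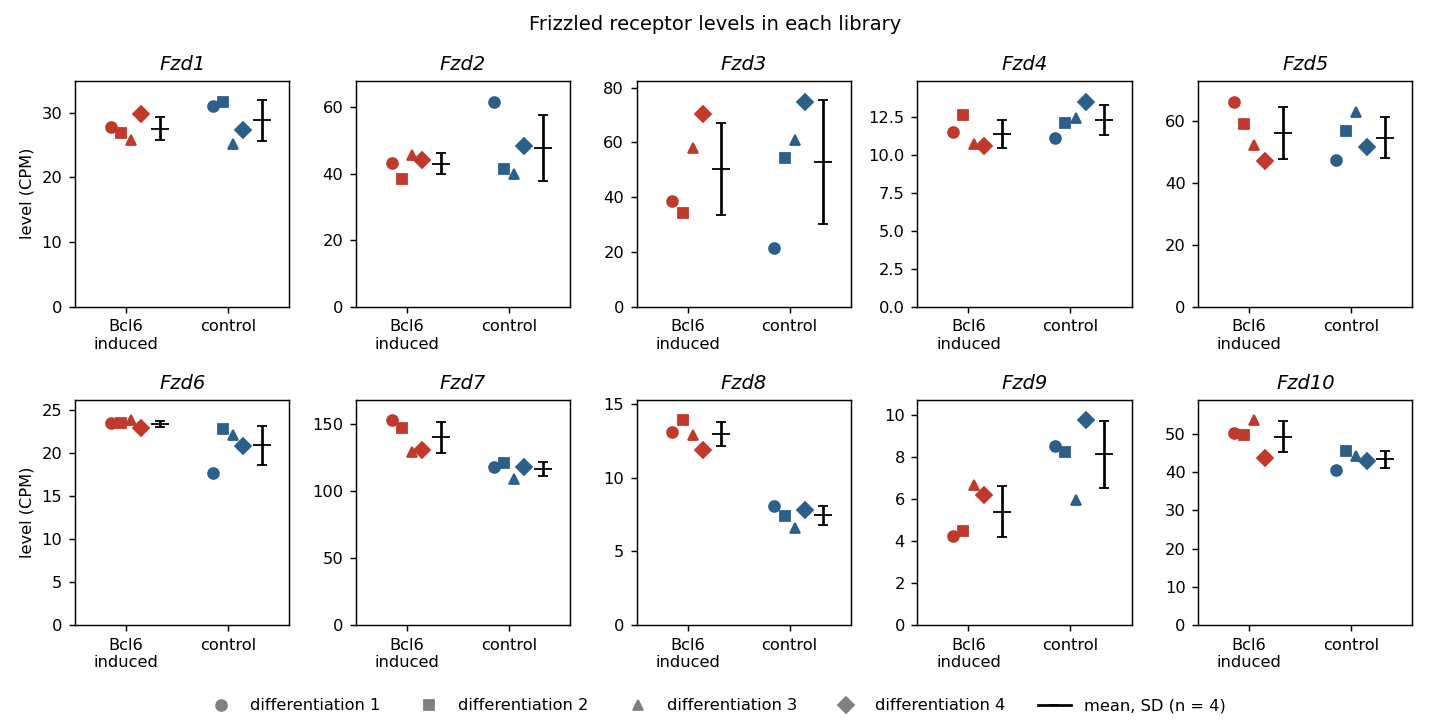
Level of each Frizzled gene in CPM (vertical axes, starting at 0) in the 4 Bcl6-induced libraries (left, red) and the 4 controls (right, blue); marker shapes give the differentiation number, and black bars the mean and SD. Fzd8 stands at 11.9 to 13.9 CPM in induced libraries and 6.57 to 8.07 CPM in controls, while Fzd3 varies more within each group than between them.

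Fzd8 (ENSMUSG00000036904, chromosome 18) is a receptor of the Fzd5 and Fzd8 pair and is known from progenitors of the developing mouse forebrain. It measured 13.1, 13.9, 12.9 and 11.9 CPM in induced libraries 1 to 4, against 8.07, 7.41, 6.57 and 7.77 CPM in controls 1 to 4. The lowest induced library was thus well above the highest control, and the libraries of each group lay close together. Fzd8 averaged 12.9 ± 0.801 CPM in induced cultures and 7.45 ± 0.646 CPM in controls (SD, n = 4 each), on 123 to 196 reads in induced libraries and 64 to 76 in controls. The log2 fold change was 0.79 ± 0.12 (SE), or 1.73-fold with a 95% interval of 1.45 to 2.07 (limma adjusted p = 0.004). Fzd8 passed the test without any 1 library (adjusted p of 0.0028 to 0.023). With reads thinned to the shallowest library its log2 fold change was again 0.79 (adjusted p = 0.004).

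Other markers differed between the groups alongside Fzd8. The neuronal sums are given above. The 5 measured neural crest markers summed to 136 to 151 CPM in induced libraries and 83.8 to 105 CPM in controls (Sox10, a defining marker, was not analysed here), and 3 were called higher. The 7 measured markers of mesoderm and vessels summed to 118 to 121 CPM in induced libraries and 62.5 to 76.5 CPM in controls (Mixl1 was not analysed here), with 1 called higher. That gene, T, made up most of the gap, averaging 59.9 CPM in induced cultures and 20.9 CPM in controls. By their mean log2 level relative to the controls the 7 markers stood at 0.34 to 0.46 in induced libraries and -0.25 to 0.26 in controls. The part of these cell types in the level of Fzd8 was not tested.

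Its closest relative, Fzd5 (ENSMUSG00000045005, chromosome 1, 64730558 to 64737751, minus strand, mm10), a receptor needed for eye and forebrain development in the mouse, did not pass the test. Fzd5 measured 66.3, 59.0, 52.1 and 47.0 CPM in induced libraries 1 to 4, against 47.3, 56.8, 62.8 and 51.6 CPM in controls 1 to 4. The groups overlapped over nearly their whole range, with induced library 1 highest and induced library 4 lowest. The log2 fold change was 0.03 ± 0.12 (adjusted p = 0.90), and the interval of 0.852-fold to 1.23-fold lay below that of Fzd8; the difference between the 2 genes was not itself tested. The ratio of Fzd8 to Fzd5 within a library was 0.197 to 0.254 in induced libraries and 0.105 to 0.17 in controls, which does not depend on how libraries are scaled.

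**Figure D2:**
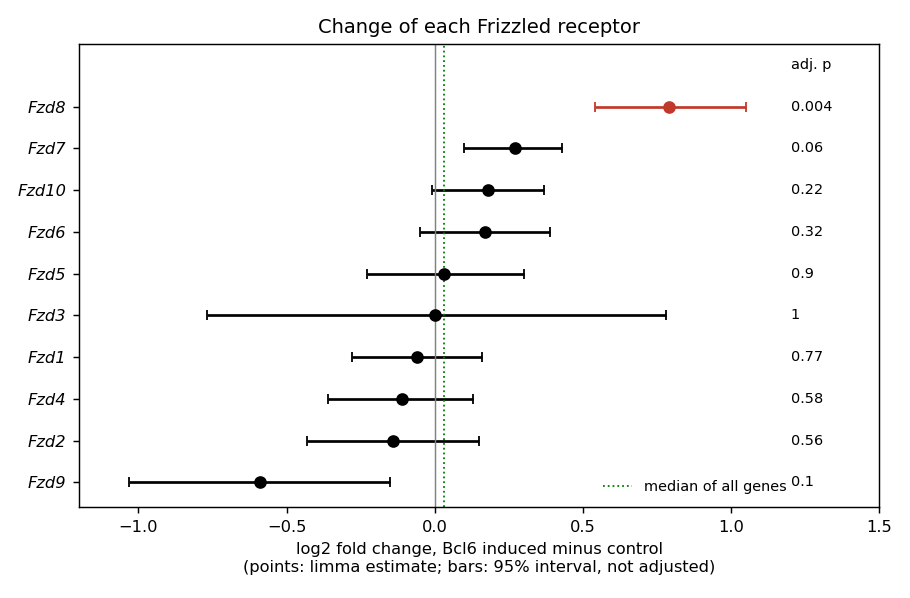
Log2 fold change of each Frizzled gene, Bcl6 induced minus control (horizontal axis; points are limma estimates over 4 against 4 libraries, bars 95% intervals not adjusted for the number of genes, adjusted p at the right). Only Fzd8, in red at 0.79, passed the test; the widest bar is that of Fzd3, at -0.77 to 0.78.

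Among Fzd1, Fzd2 and Fzd7, which in the mouse act in part in place of each other in tissue closure, no member passed the test. Fzd7 (ENSMUSG00000041075, chromosome 1, 59482424 to 59486955, plus strand), also known as a receptor of pluripotent stem cells, measured 153, 147, 129 and 131 CPM in induced libraries 1 to 4. It stood at 118, 121, 109 and 118 CPM in controls 1 to 4. Every induced library was above every control, and induced libraries 1 and 2 were the highest. The stem cell markers, by the mean log2 levels given above, were also highest in those libraries, though their sums were not above those of controls. The 6 endoderm markers were highest there too, by the same measure. They stood at 0.45, 0.41, 0.00 and 0.21 in induced libraries 1 to 4, against -0.28 to 0.20 in controls. The part of either cell type in the level of Fzd7 was not tested. Fzd7 averaged 140 ± 11.6 CPM in induced cultures and 116 ± 5.13 CPM in controls (SD, n = 4 each). The log2 fold change was 0.27 ± 0.08, or 1.2-fold with an interval of 1.07 to 1.35, and missed the threshold (adjusted p = 0.06). Without control 1 Fzd7 was called higher, at the same log2 fold change of 0.27 (adjusted p = 0.035). Without induced library 1 the log2 fold change was 0.22 (adjusted p = 0.20). Of the 21 alternatives described below, 2 called Fzd7.

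Fzd1 (chromosome 5, 4753839 to 4758035, minus strand) averaged 27.5 ± 1.73 CPM in induced cultures and 28.8 ± 3.12 CPM in controls, and its interval ran from 0.825-fold to 1.12-fold (adjusted p = 0.77). Fzd2 (chromosome 11, 102604396 to 102608058, plus strand) averaged 42.9 ± 3.18 CPM in induced cultures and 47.8 ± 9.93 CPM in controls, with an interval of 0.745-fold to 1.11-fold (adjusted p = 0.56). Its highest value, 61.7 CPM, was in control 1; the other 3 controls averaged 43.2 ± 4.49 CPM. For both genes, changes inside these intervals remain compatible with the values.

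Fzd4, Fzd9 and Fzd10 form the third group, and none of them passed. Fzd9 (ENSMUSG00000049551, chromosome 5, 135248938 to 135251230, minus strand), a receptor known from hippocampal progenitors in the mouse, measured 4.26, 4.46, 6.66 and 6.22 CPM in induced libraries 1 to 4. It stood at 8.52, 8.26, 5.97 and 9.77 CPM in controls 1 to 4. Induced libraries 1 and 2 were below all controls, while induced libraries 3 and 4 lay above control 3, so the groups overlapped. Fzd9 averaged 5.4 ± 1.22 CPM in induced cultures and 8.13 ± 1.58 CPM in controls (SD, n = 4 each). The log2 fold change was -0.59 ± 0.20, or 0.664-fold with an interval of 0.489 to 0.9 (adjusted p = 0.10), on 49 to 75 reads in induced libraries and 58 to 93 in controls. The mean log2 level of the 10 radial glia markers, relative to the controls, was -1.56, -1.48, -0.53 and -0.45 in induced libraries 1 to 4, with the same libraries low as for Fzd9. The part of radial glia content in the level of Fzd9 was not tested.

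Fzd10 (ENSMUSG00000081683, chromosome 5, 128600844 to 128604093, plus strand), known from the dorsal neural tube, measured 50.2, 49.7, 53.6 and 43.6 CPM in induced libraries 1 to 4. It stood at 40.5, 45.6, 44.3 and 43.0 CPM in controls 1 to 4, so that 3 induced libraries were above all controls and 1 fell among them. Its log2 fold change was 0.18 ± 0.08 (adjusted p = 0.22). Fzd4 (chromosome 7, 89404355 to 89413134, plus strand), the receptor of the ligand Norrin in retinal vessels, averaged 11.3 ± 0.951 CPM in induced cultures and 12.3 ± 1.01 CPM in controls, and 2 induced libraries were below all controls. Its interval ran from 0.778-fold to 1.1-fold (adjusted p = 0.58).

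Fzd3 and Fzd6, the members best known for planar polarity, did not pass. Fzd3 (ENSMUSG00000007989, chromosome 14, 65192449 to 65262463, minus strand), which is needed for axon tracts of the mouse forebrain, was the least even member. It measured 38.4, 34.1, 58.1 and 70.2 CPM in induced libraries 1 to 4, against 21.3, 54.1, 60.9 and 74.9 CPM in controls 1 to 4. The highest control was 3.51 times the lowest, or 1.38 times without control 1, and the highest induced library was 2.06 times the lowest. Fzd3 has the longest transcript of the family, at 12.7 kb, longer than that of 99.0% of genes, and control 1 is the library in which long transcripts were low. Fzd3 lay there at -1.16 (log2) from the control mean, further than the median of -0.42 of the longest transcripts, and the part of transcript length in its level was not tested. The log2 fold change was 0.00 ± 0.35 (adjusted p = 1.0), and -0.38 without control 1 (adjusted p = 0.28). The interval of 0.586-fold to 1.72-fold leaves room for a change in either direction. Induced libraries 1 and 2 had the lower values of Fzd3 within their group, as they had of Fzd9 and of the radial glia markers.

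Fzd6 (ENSMUSG00000022297, chromosome 15, 39006034 to 39038188, plus strand), known from hair patterning in the mouse, measured 23.4, 23.4, 23.8 and 22.9 CPM in induced libraries 1 to 4. It stood at 17.7, 22.8, 22.1 and 20.8 CPM in controls 1 to 4. The groups just failed to overlap, by the gap between induced library 4 and control 2, and the induced libraries were nearly equal. The log2 fold change was 0.17 ± 0.10 (adjusted p = 0.32), and 0.094 without control 1. In the annotation, genes on the opposite strand that were not analysed here overlap Fzd3 over 613 bases, Fzd5 over 1512 and Fzd6 over 152. A gene on the same strand, also not analysed here, overlaps Fzd3 over 76 bases. These overlaps are with whole genes, introns included. The library kit keeps strand, per the labels' protocols, and whether the counting used it is not given in the sources used here.

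**Figure D3:**
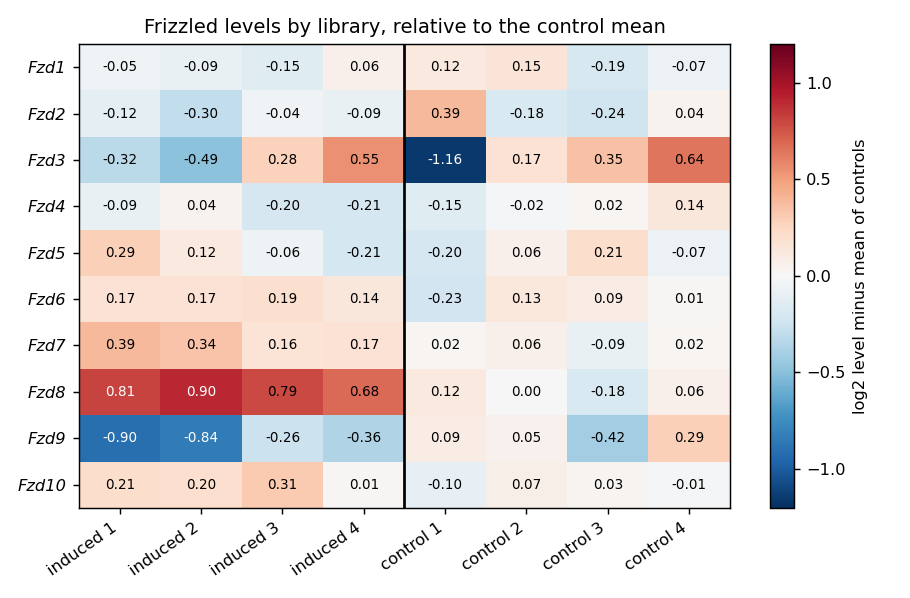
Log2 level of each Frizzled gene (rows) in each library (columns; induced left of the line, controls right), minus the mean of the 4 controls; red is above and blue below that mean. The Fzd8 row is at 0.68 to 0.90 in the 4 induced libraries, the Fzd9 row is lowest in induced libraries 1 and 2, and Fzd3 stands at -1.16 in control 1.

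Levels of different genes were compared per kilobase of exon (GENCODE M21). In controls the order was Fzd7, Fzd10, Fzd2, Fzd5, Fzd1, Fzd6, Fzd3, Fzd9, Fzd4 and Fzd8. Fzd7 led with 30.9 ± 2.56 CPM per kb in induced cultures and 25.6 ± 1.13 CPM per kb in controls (SD, n = 4 each). Its share of the family total was 35.3% in induced cultures and 31.3% in controls, and averaged over libraries its level was above that of 86.7% of genes. Fzd10 followed at 15.2 ± 1.29 in induced cultures and 13.3 ± 0.677 in controls, and then Fzd2 at 11.7 ± 0.868 in induced cultures and 13.1 ± 2.71 in controls. The ranges of Fzd10 and Fzd2 overlapped in controls and not in induced cultures. In both groups the ranges also overlapped between the neighbours Fzd5 and Fzd1, Fzd6 and Fzd3, and Fzd3 and Fzd9, so their order is not resolved. At the low end, Fzd8 was at 2.17 ± 0.134 CPM per kb in induced cultures and 1.25 ± 0.108 in controls, and Fzd4 was at 1.69 ± 0.142 in induced cultures and 1.83 ± 0.151 in controls. Fzd8 thus ranked last in controls, below Fzd4, and above Fzd4 in induced cultures, with no overlap of the ranges in either group. It made up 2.48 ± 0.138% of the family total in induced cultures and 1.52 ± 0.106% in controls.

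**Figure D4:**
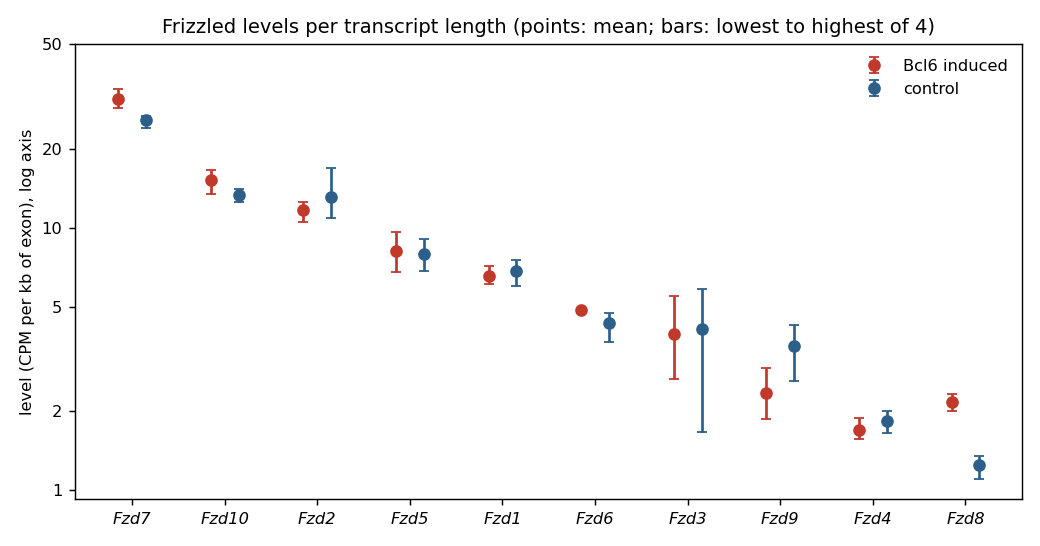
Level per kilobase of exon (log axis, CPM per kb) of the Frizzled genes, ordered by their control mean; points are means and bars run from the lowest to the highest of 4 libraries, with induced cultures (red) left of controls (blue). Fzd7 leads at 30.9 and 25.6 CPM per kb, and Fzd8 and Fzd4 change places at the low end.

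The profile of each member over the 8 libraries was also compared with those of other genes, as the root-mean-square difference between log2 levels centred on each gene's mean. Among 13552 genes with a mean of at least 2 CPM, the 5 closest to Fzd8 were Anxa3, Cited2, Irak2, Epha1 and Ripk2, at differences of 0.0792 to 0.0984, against a median of 0.428 over all genes. Each of these genes was called higher after induction, with log2 fold changes of 0.65 to 0.77, as follows from a measure that includes both groups. Anxa3, an annexin, averaged 45.4 ± 3.26 CPM in induced cultures and 28.5 ± 2.96 CPM in controls. Closest to Fzd7 were Plekhb2, Ttc7b, Snx18, Syngr3 and Rab3d, at 0.0317 to 0.0438, none of which passed the test (adjusted p of 0.061 to 0.23). Among the receptors themselves the most alike were Fzd6 and Fzd10, at 0.083, which share 39.0% of residues, and the least alike were Fzd3 and Fzd8, at 0.751. Within the 4 groups set by hand, the differences ran from 0.182, for Fzd1 and Fzd2, to 0.52, for Fzd3 and Fzd6. Fzd5 and Fzd8 stood at 0.434, and Fzd9 and Fzd10 at 0.489. Whether related members have like profiles was not tested.

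The genes that act with the receptors were described from 9 lists, of which 90 of 101 genes were measured. Of the 90, 4 were called higher and 6 lower, against 4.55% and 2.26% of all genes, and the median log2 fold change was 0.02. The count of 10 called was 5 without induced library 1 or 2, 6 without control 2 and 17 without control 1. Calls over all 14954 genes moved in the same directions. From 1019 they went to 308 and 350 without induced library 1 or 2, 359 without control 2 and 1697 without control 1. Among 16 Wnt ligands, the activators of the receptors, 2 fell, Wnt7a and Wnt7b, and the median was -0.14. Wnt7a averaged 4.76 ± 1.49 CPM in induced cultures and 10.6 ± 1.02 CPM in controls. Among 12 antagonists 2 fell, Sfrp1 and Sfrp2, which bind Wnts with a cysteine-rich domain like that of the receptors. These are the same 2 that fell among 10 other genes with that domain; Smo, the hedgehog transducer and the nearest relative of the Frizzled receptors, was at 105 ± 6.28 CPM in induced cultures and 120 ± 7.63 CPM in controls (adjusted p = 0.16).

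None of the 8 measured co-receptors and other Wnt receptors passed. Lrp5 averaged 121 ± 6.75 CPM in induced cultures and 116 ± 15.8 CPM in controls, Lrp6 166 ± 5.86 CPM in induced cultures and 149 ± 31 CPM in controls, and the receptor Ryk 104 ± 1.91 CPM in induced cultures and 104 ± 9.69 CPM in controls. Closest to the threshold was Ptk7, a polarity co-receptor, at 203 ± 5.05 CPM in induced cultures and 178 ± 3.04 CPM in controls (adjusted p = 0.07). Of 10 genes of Frizzled turnover and the R-spondin pathway, 2 fell: Rspo1, a ligand that keeps Frizzled at the surface, and Shisa3, which in Xenopus belongs to a family that holds Frizzled in the endoplasmic reticulum. Shisa3 averaged 27 ± 3.52 CPM in induced cultures and 36.8 ± 4.41 CPM in controls (log2 fold change -0.44 ± 0.12, adjusted p = 0.049). Znrf3, a ligase that removes Frizzled from the surface, was at 30.2 ± 3.85 CPM in induced cultures and 26.1 ± 6.25 CPM in controls (adjusted p = 0.42). Of the 3 measured partners for particular ligands, Tspan12, Reck and Adgra2, none passed.

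Inside the cell, 1 of 17 genes of Dishevelled and the beta-catenin machinery passed. Apc2, the neural relative of Apc, rose to 52.8 ± 6.09 CPM in induced cultures, against 35.7 ± 6.71 CPM in controls (log2 fold change 0.57 ± 0.13, adjusted p = 0.029). Dvl1, Dvl2 and Dvl3, the Dishevelled genes, did not pass. Among 11 planar polarity partners 1 passed: Vangl1, a membrane protein of the polarity complex, measured 73.2, 72.1, 70.6 and 70.2 CPM in induced libraries 1 to 4. It stood at 52.3, 50.0, 51.5 and 52.8 CPM in controls 1 to 4, a log2 fold change of 0.47 ± 0.06 (adjusted p = 0.003). Its relative Vangl2 was at 106 ± 4.72 CPM in induced cultures and 127 ± 9.8 CPM in controls (adjusted p = 0.061).

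Of 15 genes listed as beta-catenin targets, 2 rose, T and Cdx2, factors of the primitive streak and the posterior embryo. T averaged 59.9 ± 2.29 CPM in induced cultures and 20.9 ± 3.13 CPM in controls (adjusted p = 0.00011); it is also the called member of the mesoderm markers given above. The feedback targets Axin2 and Lef1 did not pass: Axin2 was at 48.2 ± 7.27 CPM in induced cultures and 46.1 ± 6.60 CPM in controls (adjusted p = 0.81). Lef1 was at 34 ± 3.55 CPM in induced cultures and 33.2 ± 4.01 CPM in controls (adjusted p = 0.87). Other targets that did not pass differed more. Log2 fold changes of the uncalled targets ran from -0.76 for Ccnd1 (limma adjusted p = 0.12) to 0.58 for Sp5 (limma adjusted p = 0.11).

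**Figure D5:**
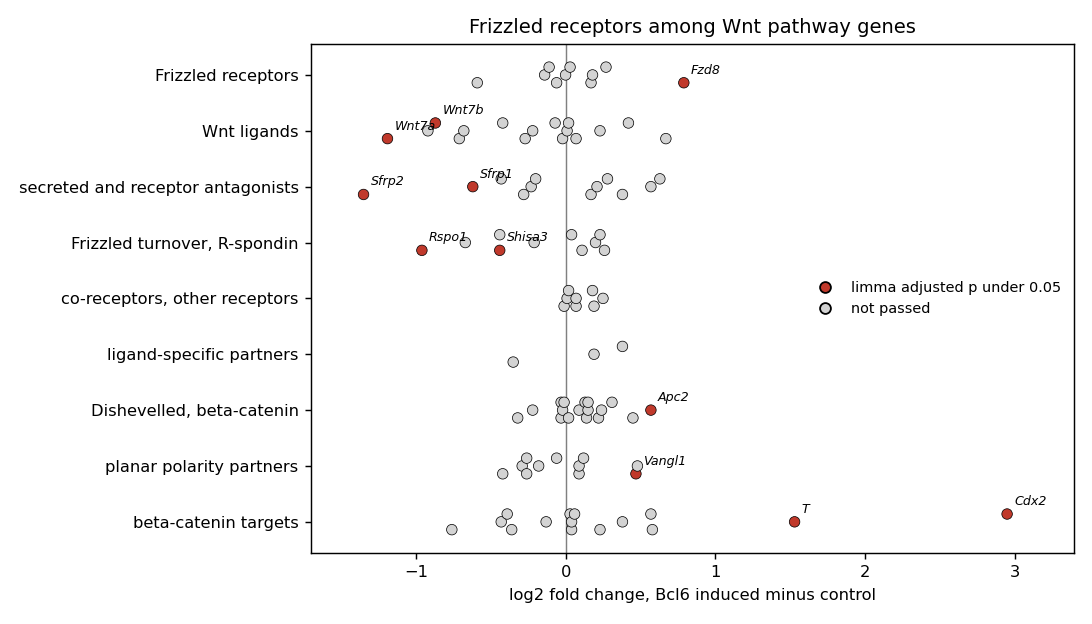
Log2 fold change, Bcl6 induced minus control, of the Frizzled genes (top row) and of the genes of 8 Wnt pathway lists (other rows), 1 point per gene; red points passed the limma test at an adjusted p under 0.05 and are named. Calls to the left of 0 are ligands, antagonists and genes of Frizzled turnover and the R-spondin pathway, and calls to the right are Fzd8, Apc2, Vangl1, T and Cdx2.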

How the data were processed

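Per the submitters' processing notes, the build was mm10 and the tools named were edgeR 3.20.1, HTSeq 0.9.1 and STAR 2.5.3a, without saying what each did. They deposited 1 table of 14954 genes in which decimal commas appear to have become column breaks. All 14954 lines were rejoined, each matching its CPM within 0.06 CPM plus 1%; the authors' statistics were not used. Each library's deposited value per gene is a score: reads scaled to about 20 M per library and rounded to whole numbers, with at least 99.6% of values on multiples of a fixed step, from which reads were recovered. CPM is the value over its library's total. The other deposited columns hold parts of split CPM numbers and served for the match only.

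The planned count test needs raw counts, so the plan's alternative for scaled values was used: limma 3.58.1 in R 4.3.3 with trend on log2(value + 1), no filter, 4 against 4 libraries, Benjamini-Hochberg over all genes. Fold changes are on that scale and understate changes of low genes. Intervals cover 95%. The test was tried on simulated data. The members, lists and tests were chosen with earlier results of these data known. Named genes were the members, called list members, the 5 nearest profiles, and others chosen after their values were seen. Coordinates and exon lengths are from GENCODE M21. The result for 1 list of cell type markers is not reported here.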

Additional observations from a re-analysis of the deposited data

How the results depend on the processing

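The call of Fzd8 held at all 21 alternatives, with a log2 fold change of 0.68 to 0.83 and an adjusted p of 0.00064 to 0.023. Of 210 fold changes over 10 genes, 191 kept direction and side of the threshold, and the cause of the other 19 was not tested. Fzd7 also passed with library weights (0.30, adjusted p = 0.013) and without control 1 (0.22 to 0.30 over single left-out libraries). At its other 19 alternatives Fzd7 did not pass. It stood at 0.17 with the length and GC trend off (adjusted p = 0.17) and 0.22 with upper quartile scaling (adjusted p = 0.12). Fzd9 passed with library weights (-0.76, adjusted p = 0.02) and with the replicate block once the trend on length and GC was taken off (-0.69, adjusted p = 0.043). Members called thus numbered 3 with weights, 2 with that block, and 1 to 2 without single libraries. Calls over all genes moved too, from 1019 of 14954 to 2507 of 14954 with weights and 1826 of 14924 with that block. Without single libraries they numbered 308 to 1697 of 14954.

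Fzd3, near 0, turned negative with median-of-ratios (-0.029), upper quartile (-0.047) and TMM scaling (-0.026), with weights (-0.49), with the length and GC trend off (-0.14, also with the block) and with voom on recovered reads (-0.009), and ranged from -0.38 to 0.22 without single libraries. Fzd5 turned negative with upper quartile scaling (-0.018) and the length and GC trend off (-0.11, also with the block), and ranged from -0.05 to 0.12.

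Over all genes, calls numbered 1019, of which 66.8% were higher; with weights 2507, with the length and GC trend off 1764 (51.0% higher), with that and the block 1826 (49.9% higher), and without single libraries 308 (induced 1) to 1697 (control 1), with 350, 359 and 649 without induced 2, control 2 and induced 3. The higher share was 55.8% with median-of-ratios, 51.4% with upper quartile and 57.4% with TMM scaling. Calls among the 90 Wnt pathway genes numbered 10, with weights 29, with the length and GC trend off 19, with the block too 24, and without single libraries 5 (induced 1 or 2) to 17 (control 1), with 6 without control 2. The replicate block alone gave 827 calls over all genes and changed no call of a receptor. Deviations of same-numbered libraries from their group means correlated at 0.03, 0.01, -0.03 and 0.37 for numbers 1 to 4, over 11869 genes. Libraries of unlike number had correlations from -0.32 to 0.32, so the numbers were not taken to pair them. Voom, thinned reads and the block with the trend off were chosen after seeing the data, and the planned edgeR and DESeq2 alternatives were not run, since they need counts. Depth limits Fzd8 and Fzd9 most, with 64 and 49 reads in their lowest libraries.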

Other observations

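Within-library ratios between related receptors, which do not depend on scaling, were taken for 8 pairs and not tested. The ratio of Fzd7 to Fzd1 was 4.39 to 5.5 across the induced libraries and 3.8 to 4.34 across the controls, so every induced library lay above every control, the closest by a small gap. The ratio of Fzd4 to Fzd10 was 0.199 to 0.254 in induced libraries and 0.266 to 0.314 in controls, without overlap. The ratio of Fzd9 to Fzd10 averaged 0.110 ± 0.0278 in induced libraries and 0.188 ± 0.0405 in controls (SD, n = 4 each), with overlap at control 3. The pair Fzd3 and Fzd6 had a ratio of 1.46 to 3.07 in induced libraries and 1.2 to 3.59 in controls.

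RefSeq promoter windows (GRCm38.p6), of which the 250 bases before the RefSeq start were searched on both strands, were matched for 6 members: Fzd1, Fzd4, Fzd5, Fzd7, Fzd9 and Fzd10. These windows do not all lie just before the GENCODE genes given above. That of Fzd10 lies inside the gene and that of Fzd9 mostly so, while those of Fzd1 and Fzd7 end short of the gene. None held TTCCTAGAA, a consensus known for Bcl6, which 0.355% of 27025 promoters held, nor the looser TTCNNNGAA that contains it, which 7.18% held. The short CTTTG, the core bound by beta-catenin partners of the Tcf family, was in 3 of the 6 windows (Fzd1, Fzd7 and Fzd10) and in 48.8% of all promoters.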
